A study of Mus musculus with 38 samples.

Results

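The genes described here are the 9 listed chitinase-like, resistin-like molecule (RELM) and arginine metabolism genes Chil3, Chil4, Chil1, Chit1, Retnla, Retnlg, Arg1, Arg2 and Nos2, taken by symbol from the 43346 genes of the count table. All 9 were found once each. They are the transcripts most often read as signs of alternative or classical activation of mouse macrophages, and they are described over 4 macrophage populations of the unperturbed lung.

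Chil3 (also called Ym1) and Chil4 (Ym2) encode secreted lectins of the chitinase fold that have lost chitinase activity, and Retnla encodes RELM-alpha (FIZZ1), a small secreted protein. Retnla, Chil3 and Arg1 are known to be induced in macrophages by interleukin 4 and interleukin 13 through the transcription factor STAT6, whereas Nos2, the inducible nitric oxide synthase, is induced by interferon gamma and Toll-like receptor ligands. Arginases and nitric oxide synthases use the same substrate, L-arginine: arginases make ornithine and urea, and nitric oxide synthases make citrulline and nitric oxide. Alveolar macrophages of healthy mice are known to carry large amounts of Ym1 protein.

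The study sorted macrophages from perfused, enzyme-digested lungs of untreated C57Bl/6 mice aged 8 to 10 weeks. Alveolar macrophages (AM) were gated as CD11c+ SiglecF+ cells lacking CD11b, CD103, Gr1 and lymphocyte markers. Interstitial macrophages came from MerTK-enriched CD64+ CD11b+ cells lacking lineage markers, Siglec F among them, and were divided by 2 surface proteins: IM1 and IM2 were the cells high in CD206, IM1 being low and IM2 high in MHCII, whereas IM3 was low in CD206 and high in MHCII. No animal was treated or carried an engineered allele, so there is no library from treated mice to compare with. Whether any of these genes was induced in the sorted cells was not tested. Each population had 3 libraries, labelled A, B and C, and each library started from 2 ng of total RNA out of approximately 50000 sorted cells.

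Libraries held between 11818981 and 15758326 reads assigned to genes, and IM1 library A was the shallowest. Summed levels of a list of alveolar macrophage markers were 3121 to 3439 in AM (CPM, the usual scale of read counts relative to all assigned reads of a library) and 16.5 to 33.1 in the interstitial libraries, and an interstitial list gave 18.1 to 23.4 in AM and 15620 to 40680 in the interstitial libraries, so both lists followed the labels. The neutrophil genes Ly6g, Mpo and Elane and the eosinophil genes Epx and Il5ra had 0 counts in every library, whereas the eosinophil genes Ccr3 (21, 10 and 19 counts in IM1, IM2 and IM3) and Prg2 (2 in IM1) had 0 in AM. Markers of other cell types also moved with the difference between AM and the interstitial populations. A list of 6 fibroblast and endothelium genes summed to 0 to 0.0693 unscaled CPM in AM, with 5 of the 6 at 0 counts, and to 32.6 to 111.5 in the interstitial libraries, and Col3a1 had 0 counts in AM and 1220, 1880 and 1489 in IM1, IM2 and IM3. A list of 5 dendritic cell genes summed to 3.14 to 3.49 in AM and 24.7 to 127.7 elsewhere. The epithelial list of 10 genes ran from 145.6 to 165.7 in AM, carried by Epcam and Cdh1, and from 9.87 to 64.0 in the interstitial libraries, while its surfactant gene Sftpc had 15 counts in AM and 327 to 718 per interstitial population. A list of 7 monocyte genes reached 1080 to 1321 unscaled CPM in IM3, well above IM2 (357 to 625), AM (144 to 184) and IM1 (56.4 to 122). The part of these in the differences described below was not tested.

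Within these data the 9 genes fell into 3 patterns: Chil3, Chil4 and Arg2 were higher in AM, Retnla and Chil1 were higher in the interstitial populations, and Arg1 was higher in IM1 than in AM and IM3. Of the 9 genes, 6 passed the filter on low counts and were tested (Chil3, Chil4, Chil1, Retnla, Arg1 and Arg2), and 3 were too low (Chit1, Retnlg and Nos2). From here levels are CPM scaled by TMM, which corrects for library composition, unless called unscaled. A gene is called at an adjusted p below 0.05 in edgeR's quasi-likelihood test over all 14095 genes tested, never over the 9 alone. When the 3 interstitial populations were averaged and set against AM, 5 members were called, 2 higher and 3 lower, where 64.6% of all tested genes were called. Against AM separately, IM1 gave 6 called members (58.8% of all genes), IM2 gave 5 (60.5%) and IM3 gave 5 (57.4%). As most genes differed from AM, these counts say little about the members, and the size of each change is given below gene by gene. These 4 comparisons use the same AM libraries. Between interstitial populations, 0 members were called for IM1 against IM2 (1.71% of all genes), by edgeR and also by DESeq2 and voomLmFit, and 1 (Chil3) with the replicate letter as a block (2.78% of all genes, 392 in place of 241). At an unadjusted p below 0.05 there were 3 (Chil3, Retnla and Arg1), where 17.5% of all genes passed. Against IM3 the test called 3 members for IM1 (Chil3, Retnla and Arg1; 24.4% of all genes) and 2 for IM2 (Chil3 and Retnla; 11.4%).

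**Figure D1:**
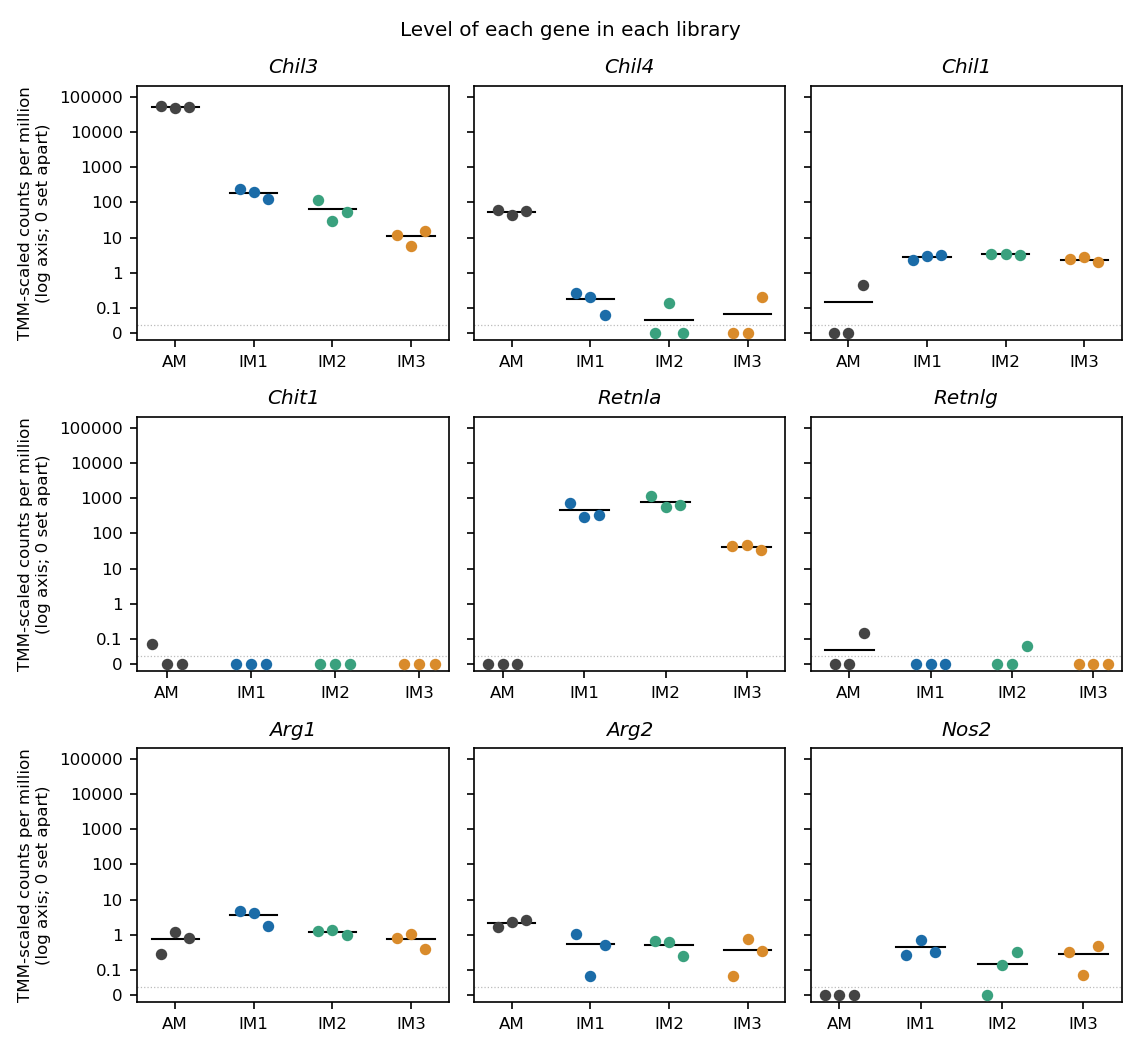
TMM-scaled CPM (log axis, with 0 set apart below the dotted line) of each of the 9 genes in each library of AM, IM1, IM2 and IM3; points are libraries and bars are means of 3, left out where the mean is near 0. Chil3 stands at 48100 to 54700 CPM in AM and at 5.87 to 243 CPM in the interstitial libraries, and Retnla has 0 counts in AM and 33.7 to 1132 CPM elsewhere.

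**Figure D2:**
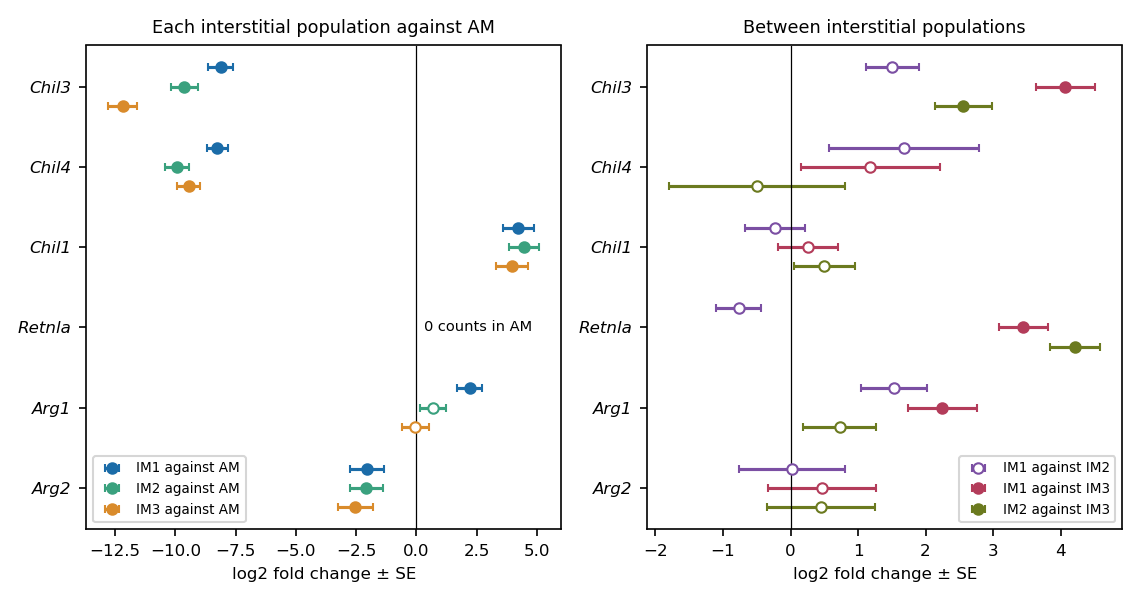
Log2 fold change with its standard error for the 6 tested members, with filled points where the adjusted p was below 0.05; the left panel sets each interstitial population against AM and the right panel sets the interstitial populations against each other. Retnla is left out on the left because AM had 0 counts; on the right Chil3 and Retnla are higher in IM1 and in IM2 than in IM3.

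Chil3 (chromosome 3, 106147554 to 106167564, minus strand, mm10; reads over its 11 merged exons) was the gene with the most reads in all 3 AM libraries. It took 5.10%, 4.35% and 4.80% of the assigned reads of AM libraries A, B and C. The level was 54700, 48100 and 51030 CPM in AM, with a mean of 51280 ± 3306 (SD, n = 3). In IM1 it was 243, 190 and 123 CPM, in IM2 113, 28.8 and 52.5 CPM, and in IM3 12.1, 5.87 and 14.95 CPM. The 4 populations did not overlap: every AM library lay above every IM1 library, every IM1 library above every IM2 library and every IM2 library above every IM3 library. Averaged over the interstitial populations, Chil3 was lower than in AM by a log2 fold change of -9.98 ± 0.34 (SE; edgeR adjusted p = 6.27e-13), lower in 9 of 9 libraries. Because these are bulk libraries, fewer cells that express a gene and less RNA per cell cannot be told apart.

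Among interstitial macrophages Chil3 fell in the order IM1, IM2, IM3. IM1 exceeded IM3 by 4.07 ± 0.44 on the log2 scale (edgeR adjusted p = 5.66e-06) and IM2 exceeded IM3 by 2.56 ± 0.42 (adjusted p = 0.000545). The difference between IM1 and IM2, 1.51 ± 0.39 on the log2 scale, was not called (edgeR adjusted p = 0.0663). It was called by edgeR with the replicate letter as a block (1.65 ± 0.32, adjusted p = 0.0106), and without IM2 library A (log2 fold change 2.18, adjusted p = 0.00566). The block was fitted over all 12 libraries, also where the letter was not found to pair them, so it is not a paired test of IM1 and IM2 alone. Chil3 was higher in IM1 than in IM2 within each of the 3 letters, which follows from the lack of overlap between their libraries and adds nothing to it. Without IM2 library A, IM2 exceeded IM3 by 1.89 (adjusted p = 0.00202). With only IM2 and IM3 in the fit, their difference kept its size at 2.57 but not its call (adjusted p = 0.0763).

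Because Chil3 was the leading AM transcript and the labels state that all libraries were pooled for sequencing, its interstitial level is set here beside other transcripts typical of AM. As a percentage of the mean AM level, Chil3 stood at 0.361% in IM1, 0.126% in IM2 and 0.0214% in IM3. Over a list of 20 alveolar macrophage transcripts the median was 0.767% in IM1, 0.492% in IM2 and 0.231% in IM3. A lower percentage than that of Chil3 was found for 4 of the 20 in IM1 (Ear1, Ear6, Krt79 and Siglecf), for 2 in IM2 (Ear6 and Krt79) and for 3 in IM3 (Cidec, Ear6 and Krt79). Of the 103 genes that reached 1000 CPM in AM, 0 had a lower percentage than Chil3 in IM1, in IM2 or in IM3. The order IM1, IM2, IM3 was not particular to Chil3: Krt79 stood at 0.161%, 0.0700% and 0.0123%, Ear1 at 0.188%, 0.139% and 0.0253%, and Krt19 at 0.427%, 0.273% and 0.0540%. Siglecf, which encodes the lectin used to gate AM in and interstitial cells out, went the other way, at 0.218%, 0.328% and 0.768%. Whether the interstitial reads of Chil3 come from the sorted cells, from AM in the sort or from reads exchanged between libraries was not tested.

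**Figure D3:**
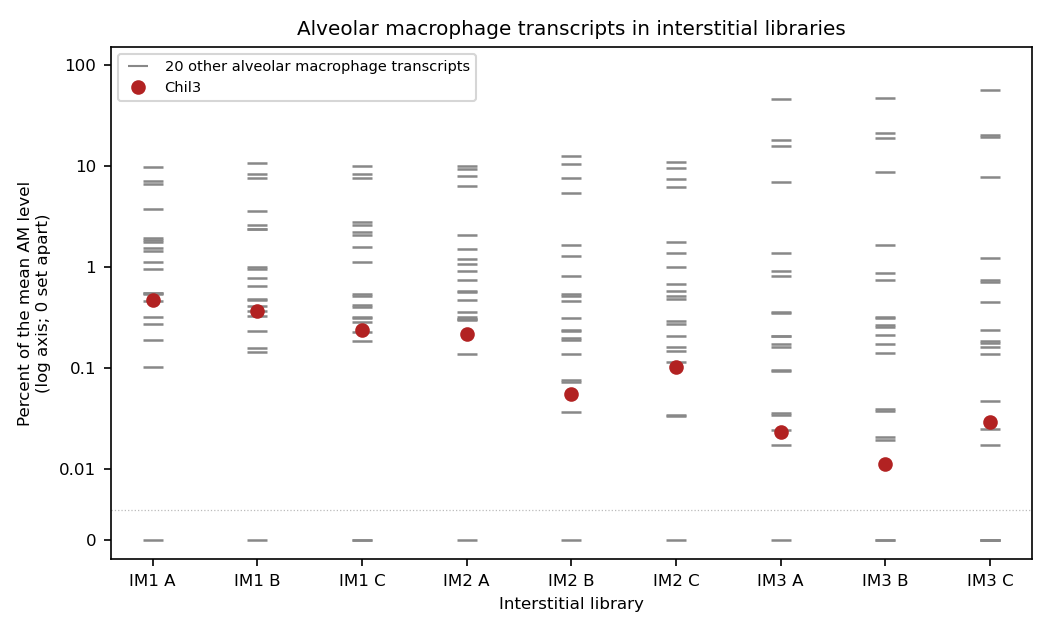
Level of Chil3 (red) and of 20 other alveolar macrophage transcripts (grey bars) in each interstitial library, as a percentage of the mean AM level on a log axis with 0 set apart. Chil3 lies in the lower part of the spread in all 9 libraries and falls from 0.473% in IM1 library A to 0.0114% in IM3 library B.

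Each library was sequenced in 3 to 5 runs, which gives a second look at the low Chil3 values. In AM the highest run exceeded the lowest by at most 1.03 times. Within the interstitial libraries the runs agreed to within 1.41 times, except in 2 libraries. In IM2 library A the runs ranged from 41.2 to 125.5 unscaled CPM, and the lowest was a shallow run of 121430 reads that held 5 Chil3 counts. In IM3 library C they ranged from 11.99 to 23.6, with 95 counts in the highest run (exact 95% Poisson interval 19.1 to 28.9 CPM, counting error only). No run of IM3 reached the level of any IM2 run.

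**Figure D4:**
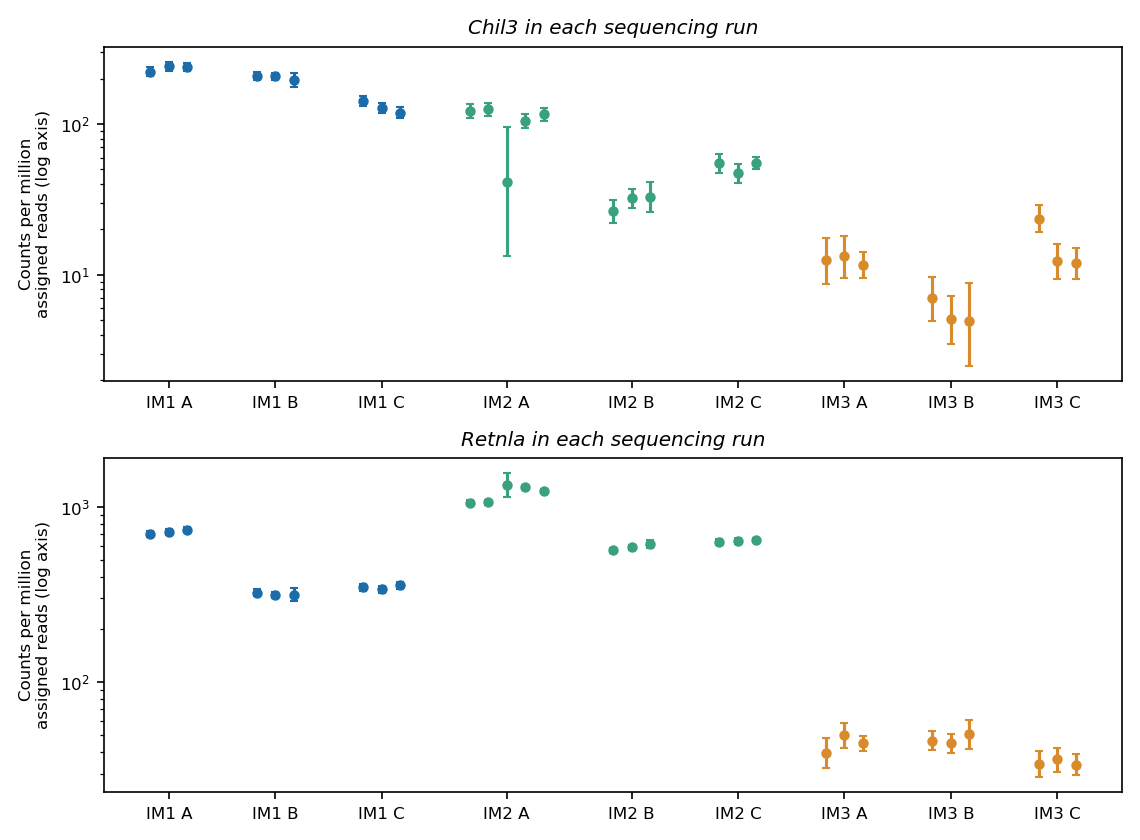
Chil3 (top) and Retnla (bottom) in each sequencing run of the 9 interstitial libraries, in unscaled CPM on a log axis, with exact 95% Poisson intervals that cover counting error only. The 3 runs of IM3 library C gave 23.6, 12.4 and 11.99 for Chil3, and the wide bar in IM2 library A is the run of 121430 reads.

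Chil4 (chromosome 3, 106201490 to 106219507, minus strand, mm10) is the neighbouring copy of Chil3, and its counts were also highest in AM, though far below those of Chil3. Its level was 60.04, 44.2 and 58.0 CPM in the AM libraries. The interstitial libraries held 0 to 3 counts each, 12 in all, and none reached the AM level. The log2 fold change of the interstitial mean against AM was -9.22 ± 0.29 (edgeR adjusted p = 3.16e-13), and with so few interstitial counts it became -10.26 without IM3 library C and -10.1 without IM2 library B. By length-scaled level (RPKM, CPM per kilobase of merged exons), AM held 31420 ± 2026 RPKM of Chil3 and 33.1 ± 5.27 RPKM of Chil4 (SD, n = 3).

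The sequences just upstream of both genes were far more alike than their levels. They are printed from RefSeq windows of GRCm38.p6, minus strand, 5′ to 3′, for the stretch that aligned between them, and capitals mark the bases with no identical partner in the other gene. Chil3 is chr3:106167565-106167785 and Chil4 is chr3:106219508-106219728.
Chil3: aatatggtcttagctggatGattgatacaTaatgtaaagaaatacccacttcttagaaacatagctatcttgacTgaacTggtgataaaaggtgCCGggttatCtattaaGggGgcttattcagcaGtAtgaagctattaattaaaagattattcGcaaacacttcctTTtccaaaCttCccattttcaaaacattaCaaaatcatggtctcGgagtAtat
Chil4: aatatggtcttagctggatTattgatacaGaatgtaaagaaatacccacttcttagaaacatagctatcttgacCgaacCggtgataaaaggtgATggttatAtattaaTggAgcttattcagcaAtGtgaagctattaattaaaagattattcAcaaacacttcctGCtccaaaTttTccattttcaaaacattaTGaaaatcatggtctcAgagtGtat
Of the 220 aligned base pairs, 201 were identical (91.4%), and 2 further bases stood against gaps. In both windows the letters TATAAA, searched on both strands, begin at the end of the printed stretch, and 13.6% of the 32851 windows in the table hold these letters anywhere. The alignment describes the reference sequence and draws nothing about how either gene is driven.

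Transcripts of both genes also share sequence, so their counts are not fully separable. In the GENCODE transcripts, 26.9% of the 50-base words of Chil3 occurred in Chil4 or in the related Gm6522, and 4.93% of its 100-base words did. Reads that map to more than 1 place were not counted, which removes such reads from both genes. Whether some Chil3 reads were counted as Chil4, in AM or elsewhere, was not tested. Chil4 made up 0.110%, 0.0918% and 0.114% of the Chil3 and Chil4 counts in AM libraries A, B and C. Over the 9 interstitial libraries together the share was 0.111% (12 Chil4 counts beside 10759 Chil3 counts; exact 95% binomial interval 0.0576% to 0.195%, counting error only). The share pooled over these libraries thus lay among the AM shares, but it says little about each population. IM3 library C had 3 Chil4 beside 221 Chil3 counts, a share of 1.34% (interval 0.277% to 3.86%) above those of AM. IM2 library B had 2 beside 411 (0.484%, interval 0.0587% to 1.74%), and the other libraries of IM2 and IM3 had 0 Chil4 counts. Such shares rest on at most 3 counts, and a separate Chil4 signal in any 1 population was not tested.

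Chil1 (chromosome 1, 134182176 to 134190181, plus strand, mm10), the gene of chitinase-3-like protein 1 (BRP-39), ran opposite to Chil3 and Chil4. AM libraries A and B had 0 counts and C had 6, whereas IM1 had 27, 44 and 50 counts, IM2 46, 49 and 50, and IM3 36, 37 and 30. Mean levels (± SD, n = 3) were 0.147 ± 0.255 CPM in AM, 2.84 ± 0.447 in IM1, 3.35 ± 0.172 in IM2 and 2.38 ± 0.342 in IM3, and no interstitial library overlapped AM. It was higher in the interstitial mean by 4.22 ± 0.60 on the log2 scale (edgeR adjusted p = 1.40e-05). The size of this value rests on the 6 counts of AM library C, without which it was 8.34 (adjusted p = 6.59e-07) against AM libraries at 0 counts, and by total counts the ratio was 20.1 (exact interval 9.14 to 55.1, counting error only). None of the differences between interstitial populations was called: the log2 fold change was 0.26 between IM1 and IM3, with a normal 95% interval of -0.62 to 1.15.

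Chit1 (chromosome 1, 134111242 to 134151540, plus strand, mm10) encodes chitotriosidase, an active chitinase, and gave 1 count in AM library A and 0 elsewhere. With 125584380 interstitial reads, 0 counts allow up to 0.0239 unscaled CPM. Among 6 other genes of the family, Ctbs, the lysosomal chitobiase, was higher in the interstitial mean (log2 fold change 0.43 ± 0.12, edgeR adjusted p = 0.00603), and Chid1 was not called (-0.14, adjusted p = 0.286). Median log2 fold change of these 2 tested relatives was 0.15 beside 0.10 for all genes. Chil5 had 0 counts in AM and 15, 23 and 12 in IM1, IM2 and IM3, while Chil6 had 1 count in IM2 and 0 in AM, IM1 and IM3. Acidic chitinase Chia1 held 5 to 13 counts in each population and Ovgp1 2 to 23.

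Retnla (chromosome 16, 48842552 to 48844461, plus strand, mm10; 4 merged exons) was the mirror image of Chil3 with respect to AM. It had 0 counts in each of the 3 AM libraries, which allows up to 0.0659 unscaled CPM. IM1 had 8531, 4410 and 5054 counts, IM2 had 15037, 7939 and 10045, and IM3 had 673, 635 and 498. Every interstitial library therefore exceeded every AM library by at least 498 counts. Against a floor of 3 counts over the AM group, Retnla was at least 6022-fold higher in IM1, at least 10680-fold in IM2 and at least 582-fold in IM3, and it was called in each comparison with AM (edgeR adjusted p from 4.87e-10 to 3.01e-08).

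Within the interstitial populations Retnla separated the CD206-high pair from IM3. The CPM were 745.5, 292.5 and 328 in IM1, 1132, 557 and 633.5 in IM2, and 44.6, 46.6 and 33.7 in IM3. All 6 libraries of IM1 and IM2 lay above all 3 of IM3, and IM1 and IM2 overlapped each other. IM1 exceeded IM3 by 3.45 ± 0.36 on the log2 scale (edgeR adjusted p = 1.05e-05) and IM2 exceeded IM3 by 4.22 ± 0.37 (adjusted p = 4.32e-06). IM1 against IM2 gave -0.77 ± 0.33 (adjusted p = 0.257), so no difference was called between the populations that differ in the MHCII gate. IM2 was the higher in all 3 letters, and with the letter as a block the value was -0.81 ± 0.20 (edgeR adjusted p = 0.0504). Library A was the highest of its group in both IM1 and IM2, for Retnla and for Chil3 alike. Mrc1, the gene of the gated CD206, was 2149 and 2204 CPM in IM1 and IM2 and 746 in IM3, a log2 difference of 1.53 between IM1 and IM3 that the sort itself selects.

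Other transcripts typical of interstitial macrophages ranged from absent to plainly counted in AM. Mmp9, Tmem176a and Fcrls also had 0 counts in AM, and C1qa, C1qb and C1qc, at 2397 to 5303 CPM over the interstitial libraries, had 1, 2 and 1. By contrast, Apoe had 313 counts in AM (0.0758% of its mean interstitial level), Cx3cr1 75 (0.276%), Ccr2 582 (2.42%) and Ms4a7 581 (3.05%). For Retnla the limit set by 0 counts was 0.0168% of its mean interstitial level.

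Retnlg (chromosome 16, 48872608 to 48874498, plus strand, mm10), the RELM-gamma gene next to Retnla, is known from neutrophils and bone marrow and was close to absent, with 2 counts in AM library C and 1 in IM2 library C. The upstream sequences are shown because the neighbours share a match to the palindrome of STAT6 sites, TTCNNNNGAA, yet differ in level. They are printed from RefSeq windows of GRCm38.p6, plus strand, 5′ to 3′, up to the first annotated start, with that match in capitals. Retnla is chr16:48842359-48842550 and Retnlg is chr16:48872358-48872607.
Retnla: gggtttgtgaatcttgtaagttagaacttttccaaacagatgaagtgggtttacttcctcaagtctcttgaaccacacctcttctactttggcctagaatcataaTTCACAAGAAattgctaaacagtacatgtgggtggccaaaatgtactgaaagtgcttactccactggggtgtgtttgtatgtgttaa
Retnlg: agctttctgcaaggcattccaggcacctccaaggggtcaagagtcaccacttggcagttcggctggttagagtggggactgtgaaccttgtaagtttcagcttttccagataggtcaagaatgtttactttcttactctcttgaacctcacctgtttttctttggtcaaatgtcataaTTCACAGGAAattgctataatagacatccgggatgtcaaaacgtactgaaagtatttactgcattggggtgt
Over 170 aligned base pairs 79.4% were identical. The matches, TTCACAAGAA and TTCACAGGAA, align with each other and share 9 of 10 bases. This motif, searched on both strands without mismatches, was found in 6.95% of all 32851 windows of equal length and in 2 of the 6 members that have a window (Chil3, Chil4, Chil1, Chit1, Retnla and Retnlg). A looser C/EBP-type motif, TTNNGNAA, matched in 5 of those 6 (all but Chit1) and in 40.7% of all windows, and a PU.1-type motif, GAGGAAGT, matched in Retnla alone of the 6 and in 3.20% of all windows. A match is a description of letters and not a bound site. Windows of Arg1, Arg2 and Nos2 were not used here.

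Of the other RELM genes, Retnlb, known from goblet cells, had 0 counts in all 12 libraries, and Retn, the resistin gene, had 2 counts in AM, 1 in IM1, 8 in IM2 and 0 in IM3. RELM-family reads in the interstitial populations were therefore almost all from Retnla, whereas AM had only those of Retn and Retnlg. The neutrophil transcript S100a8 had 46 counts in AM and 0 to 3 in each interstitial population. Over the whole neutrophil list of 11 genes the summed level was 132 to 166 unscaled CPM in AM and 59.9 to 96.8 in the interstitial libraries, carried by Csf3r and, in AM, also by Mmp8 and Cxcr2, with 6 of the 11 at 0 counts in AM; its part in the levels of Chil3 and Retnlg was not tested.

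Arg1 (chromosome 10, 24915208 to 24927470, minus strand, mm10), the cytosolic arginase, was low everywhere and highest in IM1. It had 4, 17 and 11 counts in AM, 55, 62 and 28 in IM1, 17, 20 and 16 in IM2, and 12, 14 and 6 in IM3. Levels were 3.58 ± 1.56 CPM in IM1, 1.23 ± 0.201 in IM2, 0.742 ± 0.314 in IM3 and 0.761 ± 0.458 in AM (SD, n = 3). All 3 IM1 libraries lay above all other libraries, while AM, IM2 and IM3 overlapped. IM1 exceeded AM by 2.21 ± 0.51 on the log2 scale (edgeR adjusted p = 0.00165) and IM3 by 2.25 ± 0.51 (adjusted p = 0.00468). Against IM2 the difference of 1.53 ± 0.49 was not called (adjusted p = 0.144), nor was the interstitial mean against AM (0.95 ± 0.46, adjusted p = 0.0795). That last comparison was called without AM library B (1.43, adjusted p = 0.0393) or without IM1 library C (1.06, adjusted p = 0.0404), and by voomLmFit on all libraries (1.06 ± 0.44, adjusted p = 0.0409).

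Arg2 (chromosome 12, 79130777 to 79156301, plus strand, mm10), the mitochondrial arginase, went the other way. AM had 1.61, 2.32 and 2.65 CPM, from 23, 33 and 36 counts, and the 9 interstitial libraries had 0.0662 to 1.05 CPM, from 1 to 12 counts, with no overlap. The interstitial mean was lower by a log2 fold change of -2.22 ± 0.51 (edgeR adjusted p = 0.00131). IM1, IM2 and IM3 against AM gave -2.05, -2.07 and -2.53 (adjusted p = 0.0184, 0.0165 and 0.00685), and the interstitial populations were not called against each other. The IM1 call was lost without AM library C, IM1 library B or IM1 library C (adjusted p from 0.0531 to 0.0651), and the IM2 call without AM library C or IM2 library C (0.0522 and 0.0768). The IM1 value was -2.86 without IM1 library A, and the IM3 value -3.39 without IM3 library B. In GENCODE, Arg2 is the one member with overlapping genes on the other strand, Gm48780 over 2 of its exons and Vti1b over 1. Counting ignored strand and left out reads that fell on more than 1 counted gene (3.98% to 4.76% of reads per library). Arg2 reads may thus be lost where a counted gene overlaps it. Reads of an overlapping gene outside the counted models may be added to it, and neither was tested.

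Nos2 (chromosome 11, 78920787 to 78960254, plus strand, mm10) was barely present. AM had 0 counts in all 3 libraries, IM1 had 3, 11 and 5, IM2 had 0, 2 and 5, and IM3 had 5, 1 and 7. By total counts the interstitial libraries were at least 4.25-fold higher than the floor of 3 counts over the AM group. An exact permutation test of mean CPM, two-sided over the 220 ways to choose 3 of 12 libraries, gave p = 0.0545. It was 1 of 3 such permutation tests (adjusted p = 0.164 over the 3), with p = 0.25 for both Chit1 and Retnlg. For Chit1, whose only count lay in 1 library, this test could not give a lower p and decides nothing. With no filter on low counts, edgeR called Nos2 higher in the interstitial mean (adjusted p = 0.00412) and in IM1, IM2 and IM3 against AM (adjusted p = 0.0018, 0.0434 and 0.00786), where 40.5% of all genes were called for the mean and 36.2%, 37.4% and 35.2% for IM1, IM2 and IM3. It called neither Chit1 (adjusted p = 0.331 for the mean) nor Retnlg (0.264). The call for Nos2 thus depended on the filter.

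Per kilobase, the order of the members changed between AM and the interstitial populations. In AM Chil3 was followed by Chil4, then Arg2 at 1.54 ± 0.372 RPKM and Arg1 at 0.516 ± 0.311. In IM1 Retnla led at 761 ± 421 RPKM, then Chil3 at 113 ± 36.8, Arg1 at 2.42 ± 1.06, Chil1 at 1.01 ± 0.160 and Arg2 at 0.381 ± 0.344. In IM2 Retnla stood at 1294 ± 522 RPKM, Chil3 at 39.7 ± 26.6, Chil1 at 1.195 ± 0.0612 and Arg1 at 0.834 ± 0.136. IM3 kept Retnla first at 69.6 ± 11.6 RPKM, ahead of Chil3 at 6.73 ± 2.85 and Chil1 at 0.847 ± 0.122. There the spreads of Arg1 and Arg2, at 0.503 ± 0.213 and 0.266 ± 0.235 RPKM, overlapped. The members at the top of the order were secreted lectins and RELM-alpha, and both arginases and Nos2 stayed at or below 2.42 RPKM on average in all 4 populations.

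Of the 33 tested genes of the arginine pathway around the arginases, Slc7a2 fell most and Ddah2 rose most. Slc7a2, an inducible cationic amino acid transporter for arginine, was 301 CPM in AM and 13.2, 6.35 and 1.31 in IM1, IM2 and IM3, a log2 fold change of -5.97 ± 0.15 for the interstitial mean (edgeR adjusted p = 2.18e-14), and 3.30 ± 0.25 higher in IM1 than in IM3 (adjusted p = 1.12e-07). Its interstitial order was that of Chil3. Slc3a2, the heavy chain shared by several transporters, rose by 0.62 ± 0.11 (adjusted p = 0.000162). Of 6 transport genes 5 were tested, 1 higher and 1 lower in the interstitial mean, where 64.6% of all tested genes were called. Their median log2 fold change was 0.21 beside 0.10 over all genes. In the list of urea cycle and citrulline recycling, 2 of 6 were tested and neither was called: Asl gave -0.20 (adjusted p = 0.0786) and Slc25a15 -0.05 (adjusted p = 0.798). Cps1 had 0 counts in all libraries, Otc had 0 in AM and IM1, 1 in IM2 and 9 in IM3, Nags had 1 count each in AM and IM3, and Ass1 9 to 33 per population.

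Downstream of ornithine, all 13 polyamine genes were tested, and 5 were higher and 5 lower in the interstitial mean (median log2 fold change -0.03). Of all tested genes 64.6% were called in this comparison, so such counts say little about a list. Odc1, the ornithine decarboxylase that commits ornithine to polyamines, fell by 1.71 on the log2 scale (SE 0.10, edgeR adjusted p = 3.47e-10), from 80.3 CPM in AM to 23.05 to 26.6. Lower with it were Azin1 (-1.27), Amd1 (-1.15) and the spermidine synthase gene Srm (-1.03). Azin2 rose by 4.59 ± 0.58, from 7 counts in AM, all in library C, to 151 to 212 per interstitial population, and without that library the value was 8.92. Higher too were Paox (2.19 ± 0.29) and Smox (1.79 ± 0.11), which encode oxidases that break polyamines down, and Oaz2 (1.96 ± 0.15), an antizyme that restrains Odc1. Of the genes between ornithine, proline and glutamate, 6 of 7 were in the table and tested, 2 higher and 2 lower (median -0.01). Pycr1 rose by 3.18 ± 0.71 (4.08 without AM library B) and Prodh by 1.04 ± 0.20, whereas Aldh18a1 gave -1.27 ± 0.12 and Aldh4a1 -0.88 ± 0.19, and Oat gave -0.02 (adjusted p = 0.828).

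Around Nos2, 7 of 11 genes were tested, 2 higher and 2 lower in the interstitial mean (median log2 fold change -0.17), where 64.6% of all tested genes were called. Ddah2, listed here with Ddah1 under inhibitors of nitric oxide synthases, rose by 6.39 ± 0.30 (edgeR adjusted p = 2.57e-11), or by 7.14 without AM library B. Its level went from 0.734 CPM in AM to 105, 68.0 and 33.99 in IM1, IM2 and IM3. Gatm, which takes arginine into creatine synthesis, rose by 5.38 ± 0.19 (adjusted p = 1.06e-12) and was highest in IM3 at 961.5 CPM. Qdpr, which recycles the cofactor tetrahydrobiopterin, fell from 180 CPM in AM to 56.9 to 70.5 (edgeR adjusted p = 5.57e-09), and Ddah1 gave -0.74 ± 0.28 (adjusted p = 0.0281), a call held in 16 of 18 alternatives. That mean joins opposite changes of Ddah1: against AM it was higher in IM1 by 1.03 (edgeR adjusted p = 0.0121; 6.13 against 2.99 CPM), -0.76 and not called in IM2 (adjusted p = 0.0692), and lower in IM3 by a log2 fold change of -2.49. Ddah1 was 3.52 ± 0.39 higher in IM1 than in IM3 (adjusted p = 6.81e-06). Nos3 had 0 counts in AM and 20, 20 and 11 in IM1, IM2 and IM3, Nos1 had 0 in AM and IM3, Agmat 0 in AM, and Gchfr 0 in IM1 and IM2.

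**Figure D5:**
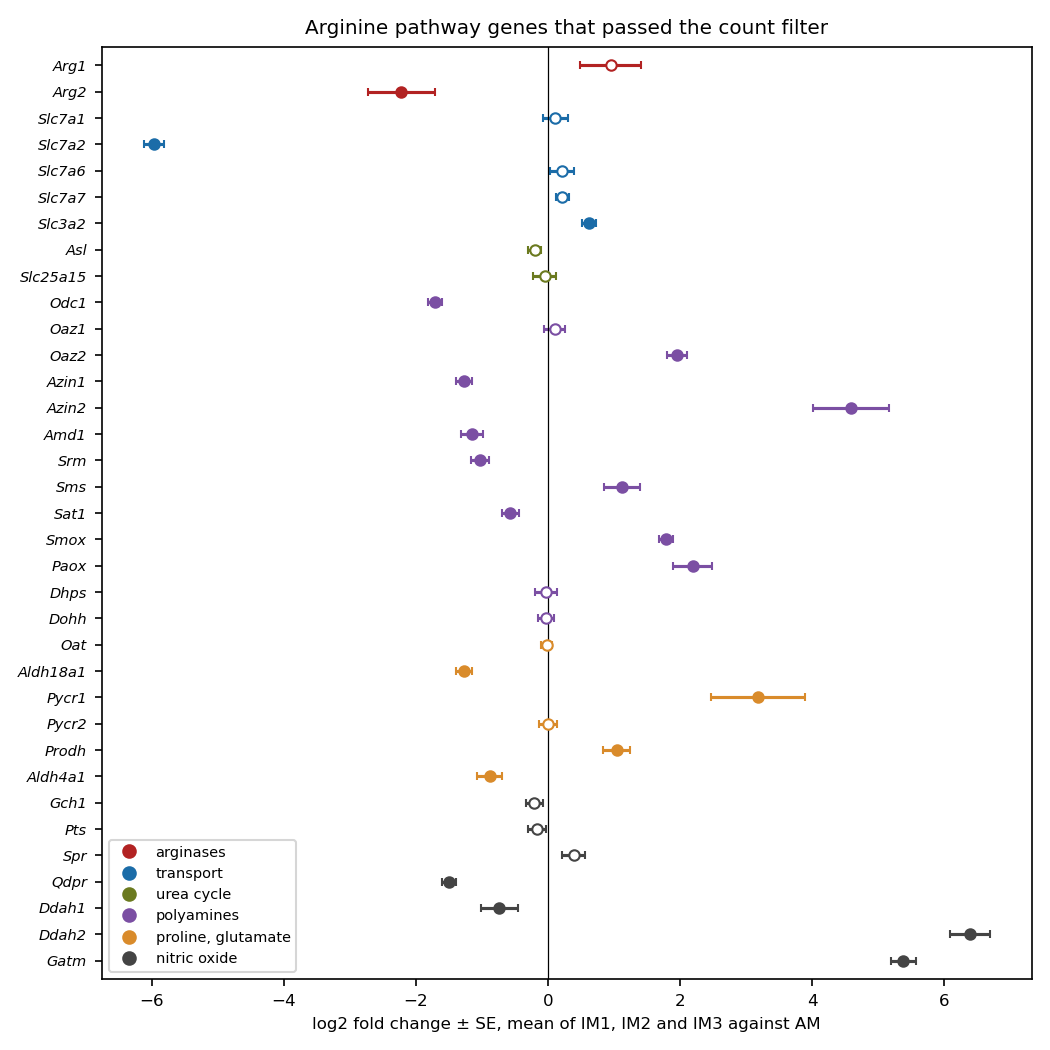
Log2 fold change with its standard error of the mean of IM1, IM2 and IM3 against AM for the arginases and the 33 arginine pathway genes that passed the filter, coloured by step and filled where the adjusted p was below 0.05. Slc7a2 lies at -5.97 and Ddah2 at 6.39, with Arg1 at 0.95 and Arg2 at -2.22 between them.

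Genes of interleukin 4 and 13 signalling, the known inducers of Retnla, Chil3 and Arg1, were divided between called and uncalled genes. Of 17, 15 were tested, 6 higher and 2 lower in the interstitial mean (median log2 fold change 0.19), where 64.6% of all tested genes were called. Stat6 was 585 CPM in AM and 491, 532 and 558 in IM1, IM2 and IM3, and was not called (-0.15, edgeR adjusted p = 0.313). The receptor gene Il4ra rose by 0.48 ± 0.12 (adjusted p = 0.00309). Larger were the rises of Kdm6b, a histone demethylase, by 3.25 ± 0.36, of the transcription factor Irf4 by 2.74 ± 0.23 and of the feedback inhibitor Socs1 by 1.81 ± 0.36, while Pparg, the fatty acid sensor needed for alveolar macrophages, fell by 3.21 on the log2 scale (SE 0.12) and Cebpb gave -0.44 ± 0.18 (adjusted p = 0.0466), a call held in 8 of 18 alternatives. Il13 and Il13ra2 had 0 counts in every library.

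Other genes known from alternative activation lay on both sides, as did the 64.6% of all tested genes that were called (5057 higher and 4050 lower). All 14 were tested, 6 higher and 7 lower in the interstitial mean (median log2 fold change -0.65 beside 0.10 over all genes). With Retnla on the interstitial side stood the lectin genes Mgl2 (13.57 ± 0.43; 14.44 without AM library C) and Clec10a (6.80 ± 0.37), the chemokine Ccl24 (9.89 ± 0.60; 12.57 without AM library A) and the haemoglobin receptor Cd163 (9.53 ± 0.18). With Chil3 on the AM side stood Cdh1 (-6.27 ± 0.28), Pdcd1lg2 (-4.15 ± 0.38), Il1rn (-4.01 ± 0.12) and Tgm2 (-3.71 ± 0.18). IM1 exceeded IM3 for Ccl24 by 5.51 ± 0.37, for Clec10a by 3.83 ± 0.30 and for Cd163 by 3.61 ± 0.13 on the log2 scale. Mgl2 did not share this difference with Retnla: its IM1 to IM3 value was -0.02 (edgeR adjusted p = 0.966).

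The list of interferon gamma and Toll signalling genes, taken for Nos2, also held cytokine genes such as Il6 and Il1b. Of its 16 genes 14 were tested, 9 higher and 3 lower in the interstitial mean (median log2 fold change 0.77). Of all tested genes 64.6% were called in this comparison, 5057 higher and 4050 lower. The lipopolysaccharide co-receptor Cd14 rose by 4.12 ± 0.24, the cytokine Il6 by 3.64 ± 0.92 (7.20 without AM library B, which held all 4 of its AM counts), Il1b by 1.93 ± 0.27 and the receptor gene Ifngr1 by 1.67 ± 0.12 (edgeR adjusted p from 4.21e-10 to 0.00259). Among the lower genes, Myd88 fell by 1.10 and Hif1a by 0.68 on the log2 scale. Ifng had 0 counts in every library, and Il12b had 0 in AM and IM2. Il1b was highest in IM3, at 392 CPM against 24.9 in IM1 and 59.3 in IM2, whereas Nos2 stayed under 0.74 CPM in every library.

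Likeness of pattern was measured as Pearson's r of log2(CPM + 0.5) across libraries, given as a description because all points share the 4 populations and their libraries. Over all 12 libraries the genes most like Chil3 were Serpinb1a (r = 0.993), F7 (0.993) and Ctsk (0.992), all AM transcripts. For Retnla they were Mmp9 (0.995), Egfr (0.993) and Peak1os (0.993), each with 0 counts in AM. Arg1 had no gene closer than Crybb1 (r = 0.90), which was 4.47 CPM in IM1 and 1.03 or less elsewhere. The closest gene was Cpne5 for Chil4 (0.999) and Wtip for Chil1 (0.986). Over the 9 interstitial libraries alone Chil3 was closest to Kif3a (0.981), Ankrd33b (0.978) and Ctla2a (0.978), none of them an AM transcript, and Retnla to Cd209e (0.989), Plppr3 (0.986) and Hpn (0.980).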

How the data were processed

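Raw read counts per gene were deposited by the authors per library and per run; the deposited tables agreed in every cell when runs were summed. STAR 2.5.1b and mm10 are named in the submitters' processing notes, and per the file headers counts came from featureCounts 1.5.0-p1 over Ensembl 78 gene models without regard to strand, leaving out multimapping reads (10.65% to 14.78%), so near-identical genes are undercounted. RPKM used the deposited length of merged exons. Symbols were given to 42462 of 43346 genes (98.0%) from GENCODE and gene name tables.

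Groups and replicate letters came from the labels. Whether letters mark separate animals is not stated, so p-values measure only the spread between these libraries. Same-letter libraries deviated together in IM1 and IM2 (correlations of deviations from the population means 0.205 to 0.346 over 3 pairs) and in IM2 and IM3 (0.141 to 0.233), so the letter was taken to pair these; IM1 with IM3 (-0.158 to 0.211) and AM with any interstitial population (-0.094 to 0.066) did not meet this for all pairs. Counts were tested with edgeR 4.0.16 (R 4.3.3; TMM, filterByExpr with a minimum count of 10, robust glmQLFit and glmQLFTest on all 12 libraries, 4 populations, no covariate), with Benjamini-Hochberg adjustment over all 14095 genes. On simulated counts for 13719 genes in the comparison of the interstitial mean with AM, 83% of genes changed by a fold of 2 and 100% of those changed by 4 were recovered, with 13 false calls. The simulation changed only 200 genes and gave every gene the same spread, whereas 64.6% of tested genes were called in the data. Its rates need not hold for these data or for members with few counts.

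Alternatives were upper-quartile and RLE scaling, DESeq2 1.42.0, voomLmFit (limma 3.58.1), no filter, only the populations compared, the replicate letter as a block over all 12 libraries and each library left out. Intervals of counts and floors (3 counts) cover counting error only. From each gene list, at most the 4 called genes with the largest change per direction, and genes with 0 counts in a population, were named; a few others were named after their values were seen. Some genes that these rules select are not reported here. The members and lists were chosen with earlier results of these data known. Sequences came from RefSeq promoter windows (GRCm38.p6), which matched 6 of the 9 genes.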

Additional observations from a re-analysis of the deposited data

How the results depend on the processing

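Across 570 refits of the 6 tested members, 556 kept direction and call, 8 gained a call, 6 lost one and 0 called values changed sign. The comparison of IM1 with IM2 depended on the setting. Its 0 called members became 3 without the filter (Chil3, Retnla and Arg1; Nos2 was called against AM under this setting), 1 with the replicate letter as a block (Chil3, log2 fold change 1.65, adjusted p = 0.0106), and 0 to 1 when a library was left out. Its 241 called genes became 591 with DESeq2, 941 without the filter, 71 with only the populations compared, 392 with the block, 88 with voomLmFit, and 110 to 1904 when a library was left out, the highest without IM1 library B. With only the populations compared, IM1 against IM3 gave 2268 called genes in place of 3445, and IM2 against IM3 gave 1 called member in place of 2. All genes called for IM2 against IM3 rose under that setting, to 2143 from 1611. The causes were not tested.

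The block changed no other call among the members, and 9 of 12 libraries correlated best with their own letter. Of the listed genes called in the interstitial mean against AM, 81 of 86 were called under every alternative, and 0 changed sign. Depth limits Chit1, Retnlg, Nos2 and interstitial Chil4, and Arg1 and Arg2 rest on at most 62 counts in a library. Ranking by CPM without length moved neighbours at low levels only (in AM, IM1, IM2 and over all interstitial libraries), and Chil3 and Retnla kept their ranks in all populations.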

Other observations

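Il4, the gene of the cytokine known to induce Retnla and Chil3, was itself counted in the CD206-high populations. IM1 had 46, 43 and 53 counts and IM2 had 63, 22 and 23, against 0, 2 and 2 in IM3 and 6, 4 and 2 in AM. All 6 libraries of IM1 and IM2 lay above all AM and IM3 libraries, at 3.44 ± 0.584 CPM in IM1 and 2.58 ± 1.88 in IM2 against 0.0940 ± 0.0816 in IM3 (SD, n = 3). IM1 exceeded IM3 by 5.09 ± 0.72 on the log2 scale (edgeR adjusted p = 7.99e-05) and IM2 exceeded IM3 by 4.67 ± 0.73 (adjusted p = 0.000363; 3.91 without IM2 library A). The interstitial mean against AM gave 1.72 ± 0.65 (adjusted p = 0.0300), a call held in 14 of 18 alternatives. Basophils and mast cells are known sources of Il4: the basophil genes Mcpt8 and Fcer1a, looked up after these values were seen, had 0 counts in all 12 libraries, and Cpa3 had 1 to 11 counts per library. The neighbouring gene Kif3a (chromosome 11, 53567379 to 53601967, plus strand, mm10) ends 1014 bases from the counted span of Il4 (53602982 to 53618669, minus strand) and was 33.2, 23.7 and 15.8 CPM in IM1, IM2 and IM3. As counting ignored strand, reads that run on from Kif3a cannot be told apart from Il4 reads, and their part was not tested.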
